A study of Mus musculus with 4 samples.

Results

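The genes described here encode the machinery that carries signals away from G-protein-coupled receptors: G protein subunits, regulators of G protein signalling (RGS), arrestins, adenylyl cyclases, regulatory subunits of protein kinase A (PKA), phosphodiesterases of the PDE4 family and beta-type phospholipases C (PLC). They were chosen by name, as every gene whose symbol starts with Gnai, Gnao, Gnaq, Gnas, Gnaz, Gna1, Gnb, Gng, Rgs, Arrb, Plcb, Prkar or Pde4, or with Adcy followed by a number, leaving out 4 rows named as pseudogenes. The rule found 79 genes among 55450, and 58 of them had enough reads to be tested. The other 21 comprised 10 genes without a read in any library (Plcb1, Adcy1, Adcy2, Adcy8, Rgs7, Rgs17, Rgs21, Rgs22, Gng13 and Gngt1) and 11 genes with few reads.

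The libraries came from CD11c+ cells of mesenteric lymph nodes (MLNs) of wild-type C57BL/6J mice, for which no transgene or deletion is named. CD11c is an integrin of dendritic cells and of some other leukocytes. Nodes were pooled, the cells of a pool were enriched on magnetic beads and then divided between a well with 10 µM of an agonist of Ffar2 and a well with water, and both were kept for 6 h in RPMI medium with 10% serum. This gave 2 agonist and 2 control libraries, numbered 2 and 3 after the pools they came from. The agonist's chemical name and the ages of the mice were not given in the sources used here, and enrichment on beads can leave other node cells in the sample.

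A G protein is a trimer of an alpha subunit with a beta-gamma pair. Ffar2, a receptor for short-chain fatty acids made by gut bacteria, is known to couple to alpha subunits of the Gi/o class, which inhibit adenylyl cyclase and so lower cyclic AMP, and of the Gq class, which activate PLC beta. Beta-gamma pairs released from Gi signal too, for example to the phosphoinositide 3-kinase of leukocytes, RGS proteins end the signal by speeding GTP hydrolysis, and arrestins uncouple the receptor. Cyclic AMP acts largely through PKA and is degraded by phosphodiesterases such as PDE4.

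Reads assigned to genes numbered 49509736 and 59902172 in the agonist libraries of pools 2 and 3, and 43238375 and 52417584 in the control libraries of the same pools. The cell types matched the label in part. Itgax, the CD11c gene, had 95.5 to 178 CPM (read counts scaled to a common library size) in the agonist wells and 105 to 189 CPM in the control wells, and Ccr7, a receptor of migratory dendritic cells, had 7374 to 13380 CPM in the agonist wells and 10070 to 12260 CPM in the control wells. Markers of other cells were also read. The 12 T cell markers summed to 733 and 331 CPM in the agonist wells of pools 2 and 3, against 1039 and 507 CPM in the control wells. They were lower with agonist in both pools for 12 of 12 (27.9% of all tested genes). The 10 B cell markers summed to 764 and 403 CPM with agonist, against 857 and 482 CPM in control. Lower in both pools were 9 of these 10, 4 of 5 markers of plasmacytoid dendritic cells and 4 of 6 of natural killer cells. In each of these 4 lists 0 were higher in both. Of markers of migratory dendritic cells and of platelets, 3 of 5 each were higher in both pools and 0 lower in both. Markers of monocytes and macrophages summed to 550 and 440 CPM with agonist, against 659 and 424 CPM in control. Those of mast cells summed to 445.5 and 832 CPM with agonist, against 474.5 and 790 CPM in control. Of these 4 markers 3 were tested. Their median log2 fold change, agonist over control, was 1.61, and the test given below called 0 of them. The 5 neutrophil markers summed to 8.83 and 9.27 CPM with agonist, against 15.9 and 6.09 CPM in control. Of these 5, Ly6g alone was at 0 in all 4 libraries. In bulk samples fewer cells of a type and less RNA per cell cannot be told apart. The 2 libraries of pool 2 had 21194 and 17776 reads of Xist and none of Ddx3y, and those of pool 3 had 21461 and 18752 reads of the Y-linked Ddx3y and none of Xist, so the pools cannot be told apart from sex.

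The level of each gene was compared with that of others as CPM per kilobase of its exons (CPM per kb), and levels below are means over the 4 libraries where no library is named. Among the 18297 genes tested, Rgs1 ranked 135th by this measure, Gnai3 252nd, Prkar1a 334th and Pde4b 545th, so an RGS protein, a Gi alpha subunit, a PKA regulatory subunit and a phosphodiesterase led the set. With the length of the principal transcript in place of that of all exons, the same 4 genes led in another order, with Rgs1 at 505, Pde4b at 208, Gnai3 at 159 and Prkar1a at 157 CPM per kb. Above 10 CPM per kb there were 18 of the 58 tested members, and 37 were above 1.

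**Figure D1:**
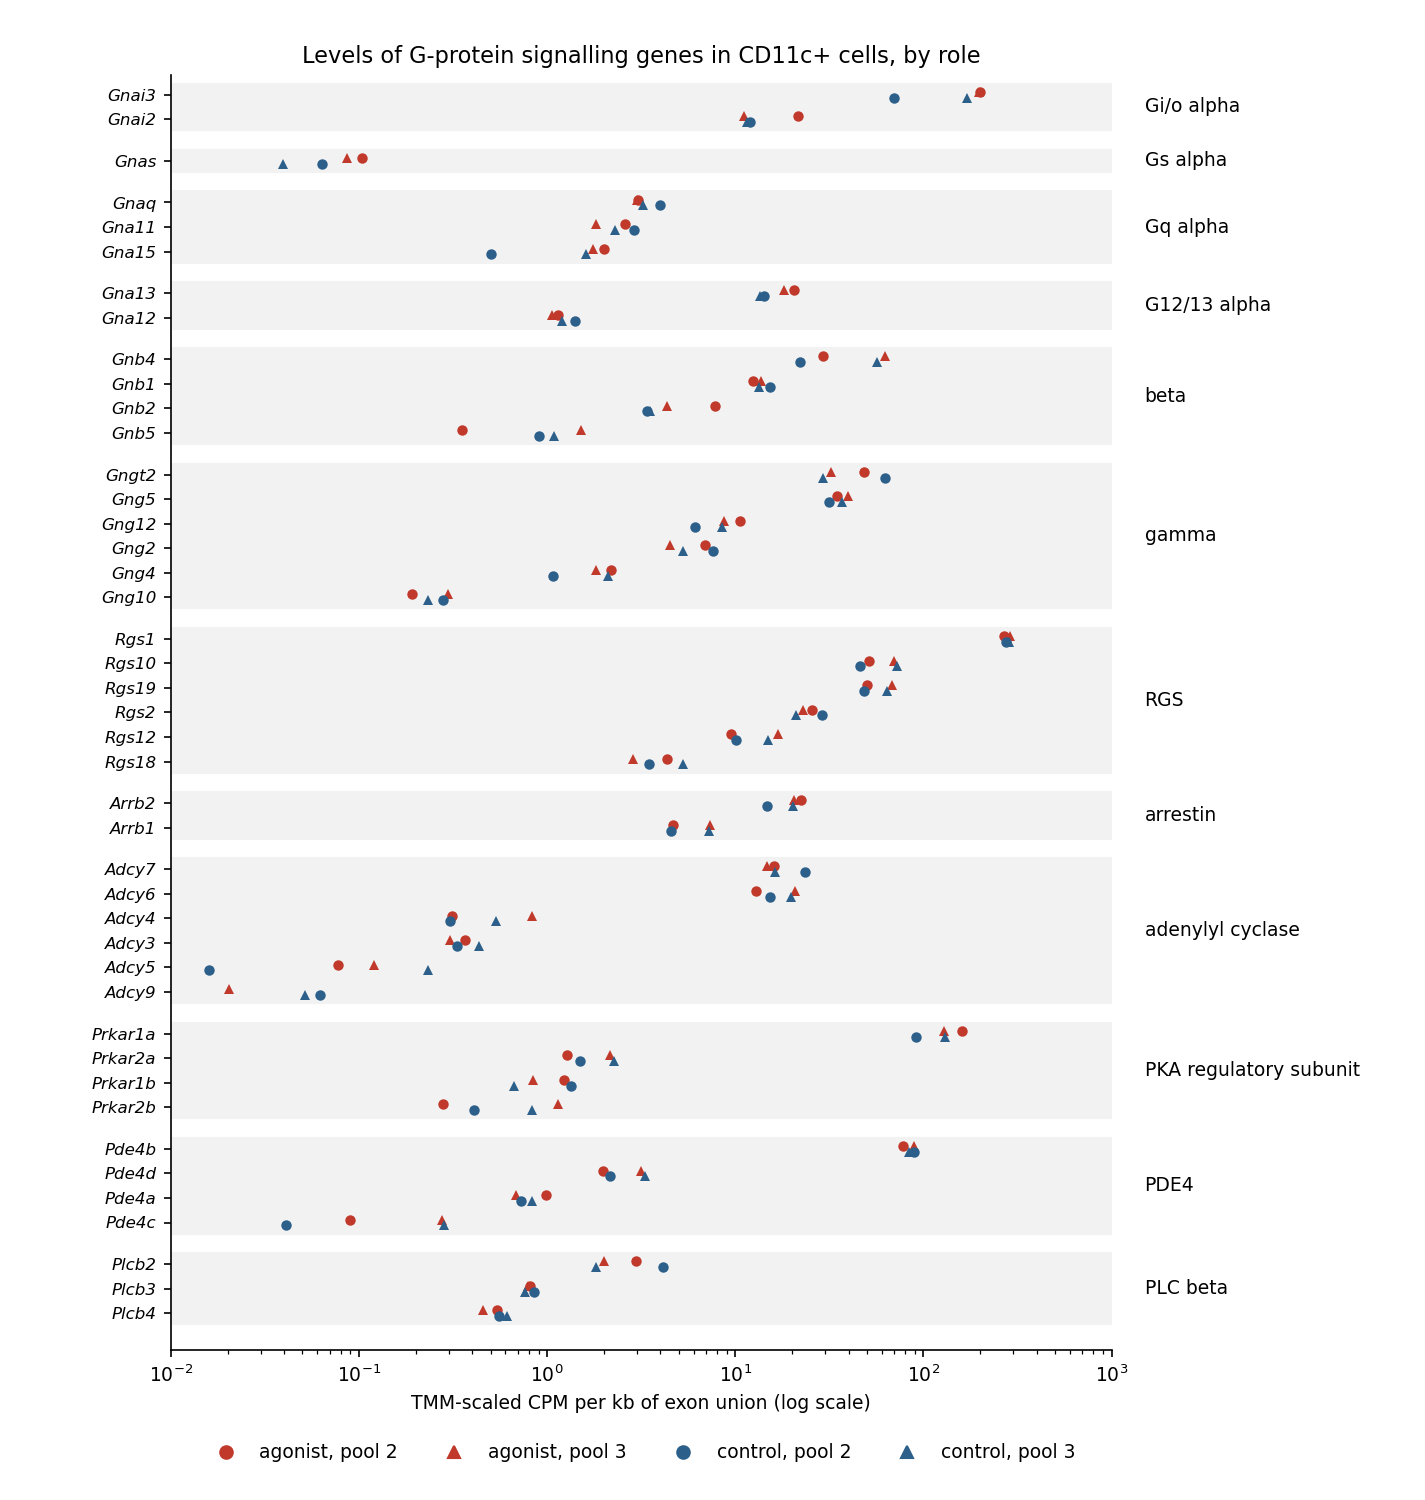
Levels of the leading tested members of each role, in CPM per kb on a log scale. Each point is a library, red for agonist and blue for control, circles for pool 2 and triangles for pool 3. Rgs1, Gnai3, Prkar1a and Pde4b stand highest. Adcy9 had 0 reads in the agonist well of pool 2, which the log axis cannot show.

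The Gi/o class was represented by Gnai3 and Gnai2. Gnai3 (ENSMUSG00000000001.4, chr3:108107280-108146146, minus strand, GRCm38) had 201 and 197 CPM per kb in the agonist wells of pools 2 and 3, against 69.7 and 170.4 CPM per kb in the control wells. The control well of pool 2 stood well below the other 3 libraries. Gnai2 had 21.5 and 11.1 CPM per kb with agonist, against 12.03 and 11.5 CPM per kb in control, and here the agonist well of pool 2 stood above the other 3. Gnai3 thus made up 85.3% to 94.6% of the summed Gi/o alpha level, and its level was 5.79 to 17.7 times that of Gnai2 per library. With principal transcript lengths the range was 3.39 to 10.4 times. The principal transcript of Gnai3 is 41.7% G and C and that of Gnai2 56.7%, and the median level of all tested genes was 6.79 CPM per kb at 40% to 45% and 3.40 CPM per kb at 55% to 60%; the part of base composition in the order of the alpha subunits was not tested. Gnai1 had at most 3 reads in a library and Gnao1, the neuronal Go subunit, at most 5. Gnaz had 9 reads in the control well of pool 3 and none elsewhere.

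The Gq class was lower. Gnaq had 3.04 and 2.99 CPM per kb with agonist, against 3.99 and 3.25 CPM per kb in control. Gna11 had 2.58 and 1.83 CPM per kb with agonist, against 2.89 and 2.28 CPM per kb in control. Gna15, the Gq-class subunit of blood cells, which many receptors can engage, had 2.00 and 1.76 CPM per kb with agonist, against 0.506 and 1.61 CPM per kb in control. The range of Gnaq over the libraries lay above that of Gna11, while those of Gna11 and Gna15 overlapped. Gnai3 stood 17.5 to 65.9 times above Gnaq in a library. With principal transcript lengths the ranges of Gnaq and Gna11 overlapped too, around means of 3.635 and 2.873 CPM per kb. Gna14 had at most 14 reads. Of the G12/13 class, Gna13 had 20.5 and 18.3 CPM per kb with agonist, against 14.3 and 13.6 CPM per kb in control, and exceeded Gna12 10.2 to 18.1 times.

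Gnas, the gene of the stimulatory alpha subunit, had the lowest level of the tested alpha subunits, with 60 and 55 reads in the agonist wells and 31 and 23 in the control wells. That is 0.103 and 0.0867 CPM per kb with agonist, against 0.0637 and 0.0394 CPM per kb in control. Reads that overlapped more than 1 gene were set aside by the counting and given to none. Exons of the antisense gene Gm20721 overlap 14 of the 16 coding transcripts of Gnas, covering a median of 35.9% and up to 85.4% of their bases, and Gm20721 itself had 3 reads in all. The Gnas principal transcript is 60.2% G and C. The part of this overlap and of base composition in the low count was not tested, so the Gnas level is uncertain. More than 10% of the principal transcript lay in exons of another gene for 8 members in all, Gng10 standing at 79.4%.

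Among beta subunits, Gnb4 had 29.1 and 62.5 CPM per kb with agonist, against 22.1 and 56.8 CPM per kb in control. Both libraries of pool 3 were above both of pool 2. Gnb1, the widely expressed beta subunit, had 12.5 and 13.7 CPM per kb with agonist, against 15.3 and 13.4 CPM per kb in control, so Gnb4 exceeded it 1.45 to 4.56 times in the 4 libraries, and 2.26 to 7.11 times with principal transcript lengths. Gnb2 had 7.82 and 4.32 CPM per kb with agonist, against 3.38 and 3.52 CPM per kb in control. Gnb5, which pairs with a subfamily of RGS proteins rather than with gamma subunits, averaged 0.963 CPM per kb, and Gnb3 had at most 17 reads.

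Of 12 gamma subunit genes, 10 were tested and Gngt2 and Gng5 led. Gngt2, known from cone photoreceptors and also read in leukocytes, had 48.1 and 32.3 CPM per kb with agonist, against 62.3 and 29.1 CPM per kb in control, while Gng5 had 34.7 and 39.7 CPM per kb with agonist, against 31.7 and 36.8 CPM per kb in control. The order of these genes differed between libraries, with Gngt2 0.792 to 1.97 times Gng5. Gng12 averaged 8.47, Gng2 6.09, Gng4 1.80 and Gng10 0.250 CPM per kb.

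Rgs1, a brake on Gi and Gq signals known for dampening chemokine responses of leukocytes, was the member of highest level. It had 267 and 289 CPM per kb in the agonist wells of pools 2 and 3, against 275 and 286 CPM per kb in the control wells. These 4 values span a narrow range, and the groups overlapped. Rgs1 made up 60.3% to 64.5% of the summed RGS level in a library. Rgs10 and Rgs19 averaged 59.95 and 57.6 CPM per kb and overlapped over the libraries, followed by Rgs2 at 24.5, Rgs12 at 12.8 and Rgs18 at 3.98 CPM per kb. With principal transcript lengths Rgs9 at 7.51 and Rgs14 at 5.375 CPM per kb stood above Rgs18 at 3.98. Rgs16 averaged 2.99 CPM per kb. Of 21 RGS genes, 13 were tested.

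Of the arrestins, Arrb2 had 22.3 and 20.6 CPM per kb with agonist, against 14.8 and 20.3 CPM per kb in control. Arrb1 had 4.68 and 7.33 CPM per kb with agonist, against 4.58 and 7.22 CPM per kb in control. Arrb2 was above Arrb1 in each library, 2.81 to 4.76 times, and 1.44 to 2.44 times with principal transcript lengths.

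Of 10 adenylyl cyclases, 6 were tested. Adcy7 and Adcy6 led, and the other tested cyclases stayed below 1 CPM per kb each. Adcy7, the cyclase typical of blood cells, had 16.0 and 14.8 CPM per kb with agonist, against 23.5 and 16.2 CPM per kb in control. Adcy6, a cyclase that Gi inhibits, had 12.95 and 20.9 CPM per kb with agonist, against 15.4 and 19.9 CPM per kb in control. Neither led throughout, Adcy7 standing at 0.707 to 1.53 times Adcy6. Adcy4 averaged 0.495, Adcy3 0.359, Adcy5 0.111 and Adcy9 0.0335 CPM per kb.

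Downstream of cyclic AMP, Prkar1a, the type I alpha regulatory subunit that holds PKA inactive until it binds cyclic AMP, had 161 and 129 CPM per kb with agonist, against 91.1 and 131 CPM per kb in control. It made up 96.6% to 98.3% of the summed level of the 4 PKA regulatory subunits, of which Prkar2a averaged 1.80, Prkar1b 1.02 and Prkar2b 0.665 CPM per kb. Pde4b, the PDE4 gene known for its role in inflammatory responses of leukocytes, had 77.9 and 89.1 CPM per kb with agonist, against 89.4 and 83.4 CPM per kb in control. It was 25.1 to 41.5 times Pde4d and made up 94.9% to 96.8% of the PDE4 level; with principal transcript lengths it was 13.1 to 21.7 times Pde4d. Pde4d averaged 2.65, Pde4a 0.806 and Pde4c 0.173 CPM per kb. Of the PLC beta genes, which Gq and beta-gamma activate, Plcb2, the form of blood cells, averaged 2.72 CPM per kb, Plcb3 0.803 and Plcb4 0.540.

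The promoters of Prkar1a, Gnai3 and Pde4b are shown, 3 of the 4 leading members (Rgs1 was not matched), because CREB, the transcription factor that PKA activates, binds the cyclic AMP response element TGACGTCA and its core TGACG. Each is a RefSeq promoter on build GRCm38.p6, 300 bases 5′ to 3′ from 250 bases before the start base, and the capitals mark TGACG on either strand and, in Prkar1a, the whole element. Prkar1a lies at chr11:109650612-109650911 on the plus strand, Gnai3 at chr3:108146103-108146402 on the minus strand and Pde4b at chr4:102421305-102421604 on the plus strand. Gnai3 has 1 promoter in the table, while the core was in 3 of the 6 of Prkar1a and 1 of the 4 of Pde4b, and those shown were picked for holding a motif.
Prkar1a: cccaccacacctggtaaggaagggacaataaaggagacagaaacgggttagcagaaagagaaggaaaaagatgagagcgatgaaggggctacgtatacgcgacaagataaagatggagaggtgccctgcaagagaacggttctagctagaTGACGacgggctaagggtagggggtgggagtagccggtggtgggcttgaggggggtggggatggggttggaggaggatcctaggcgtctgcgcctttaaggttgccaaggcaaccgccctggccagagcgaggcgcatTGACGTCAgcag
Gnai3: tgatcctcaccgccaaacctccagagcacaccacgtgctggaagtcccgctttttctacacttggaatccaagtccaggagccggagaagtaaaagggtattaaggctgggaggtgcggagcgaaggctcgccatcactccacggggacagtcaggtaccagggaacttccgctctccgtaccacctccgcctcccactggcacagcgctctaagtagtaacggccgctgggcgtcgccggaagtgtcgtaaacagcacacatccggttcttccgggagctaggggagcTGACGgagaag
Pde4b: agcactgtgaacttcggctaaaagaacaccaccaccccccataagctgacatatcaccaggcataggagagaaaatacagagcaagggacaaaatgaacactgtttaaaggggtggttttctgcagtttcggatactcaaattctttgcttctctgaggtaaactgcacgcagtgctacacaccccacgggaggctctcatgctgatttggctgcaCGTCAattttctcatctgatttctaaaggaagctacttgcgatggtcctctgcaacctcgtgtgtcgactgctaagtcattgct
The element TGACGTCA, searched on both strands, lay in 588 of 32851 promoters (1.79%). It was in a promoter of 549 of 27025 genes (2.03%) and, of the 62 members matched by symbol, in 1, Prkar1a, at 1 of its 6 RefSeq starts, beginning 38 bases past the start base. The core TGACG, which the full element contains, lay in a promoter of 20 of the 62 members (32.3%), against 6228 of all 27025 genes. These matches describe the letters of the promoters only.

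The agonist was then set against the control across all genes. The quasi-likelihood test of edgeR over 18297 genes called 0 (0% of all tested genes) and 0 of the 58 members at an adjusted p under 0.05, limma-voom 0 genes, and DESeq2 7 genes and 0 members. At an unadjusted p under 0.05 edgeR had 289 genes (1.58% of all tested genes) and 1 of 58 members. It was lower with agonist (0.94% of all tested genes were lower at that level and 0.639% higher). With the pool as a block these counts were 1 gene (0.00547%) and 0 members at the adjusted threshold, and 2 members, Gnai3 and Rgs9bp, at the unadjusted level (3.53% of all tested genes). Members had a median of -0.05 in log2 fold change, agonist over control, as did all tested genes, and 46 of 58 members lay within 0.5 of 0, against 69.9% of all genes. Of the 58, 13 were higher with agonist in both pools (21% of all genes), 20 were lower in both (27.9%) and 25 went opposite ways in the pools (51.1%). In 8 members both agonist libraries were above both control libraries (11.4% of all genes), and in 10 both were below (13.5%), 18 in all (25%). A 95% interval within 1 log2 unit of 0 on either side was reached by 11 of 58 members, or 26 with the pool as a block, and the median standard error (SE) of a member's log2 fold change was 0.424, or 0.351 with that block.

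**Figure D2:**
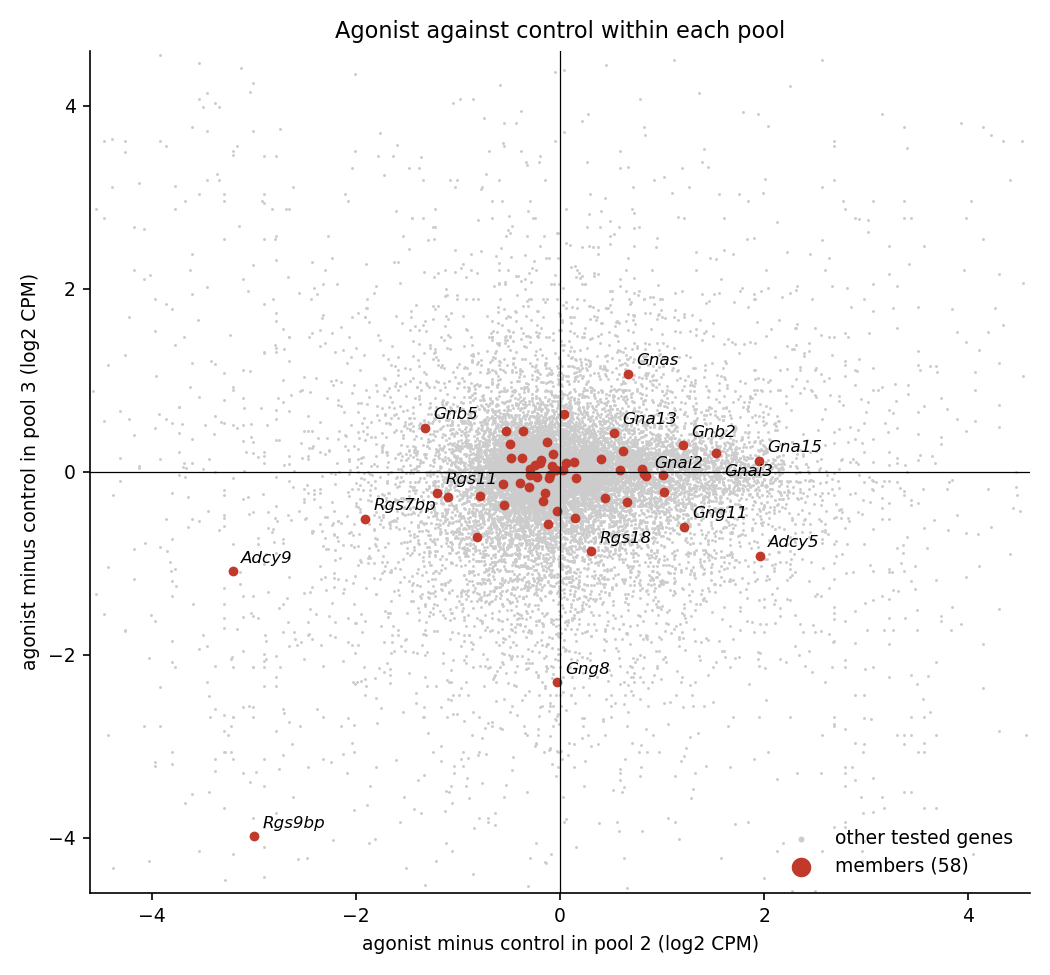
Agonist minus control in log2 CPM, in pool 2 on the horizontal axis and in pool 3 on the vertical axis, for the 58 tested members (red) and the other tested genes (grey). Axes end at 4.6 log2 units, which leaves out 94 genes, none a member. Most members lie near the centre, Gnai3, Gna15 and Gnb2 to the right, and Rgs9bp at the lower left.

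The member at an unadjusted p under 0.05 was Rgs9bp, which encodes an anchor of an RGS protein of photoreceptors and was matched only through its name. It had 6 and 3 reads in the agonist wells of pools 2 and 3, against 52 and 74 reads in the control wells. On the log2 scale its estimate was -3.92 (SE 0.88, 95% interval -6.04 to -1.81, unadjusted p = 0.00374, edgeR adjusted p = 0.9999). The groups did not overlap, and the level was low, at 0.105 CPM per kb.

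Among alpha subunits, Gnai3 was higher with agonist in both pools, by 1.53 in pool 2 and 0.21 in pool 3 in log2 CPM. Its CPM averaged 648 ± 8.83 in agonist wells and 391.5 ± 232 in control wells (SD, n = 2 each). The estimate, agonist over control, was 0.73 on the log2 scale (SE 0.43, 95% interval -0.32 to 1.77, edgeR unadjusted p = 0.142, adjusted p = 0.9999). The blocked fit gave 0.87 (SE 0.33, unadjusted p = 0.0272, adjusted p = 0.9998), and leaving out each library in turn gave 0.22 to 1.59 in the unblocked fit. Gna13 was higher by 0.52 in pool 2 and 0.43 in pool 3, and the groups did not overlap. Its log2 estimate of 0.48 had an SE of 0.26 (edgeR adjusted p = 0.9999). Log2 fold changes were 0.47 (SE 0.38) for Gnai2, 0.82 (SE 0.64) for Gna15, 0.88 (SE 0.70) for Gnas, -0.26 (SE 0.31) for Gnaq and -0.23 (SE 0.38) for Gna11, each with an edgeR adjusted p of 0.9999. The estimate of Gna15 was 0.22 without the control library of pool 2 and 1.97 without that of pool 3.

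**Figure D3:**
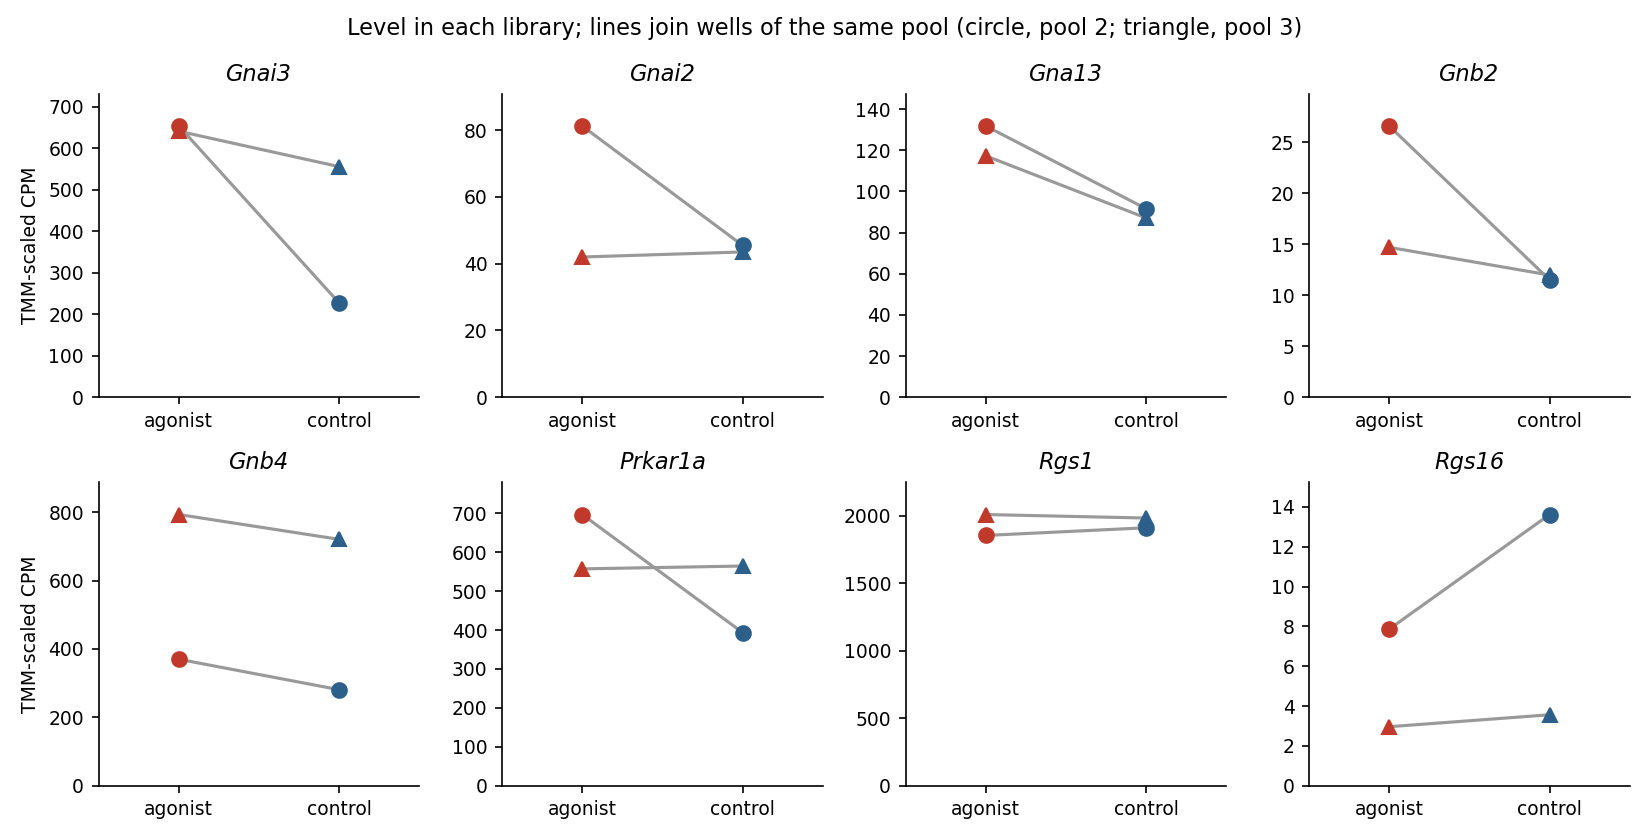
CPM of 8 members in each library, agonist wells at the left of each panel and control wells at the right, with lines joining wells of the same pool. Gnai3 is low in the control well of pool 2 alone, Gnb4 and Rgs16 separate the pools, and Rgs1 is nearly level.

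Of the beta and gamma subunits, Gnb2 was the member with the second smallest p. It was higher by 1.21 in pool 2 and 0.29 in pool 3, with a log2 estimate of 0.81 (SE 0.39, 95% interval -0.14 to 1.76, edgeR unadjusted p = 0.0813, adjusted p = 0.9999). The log2 estimates of Gnb1 (-0.13, SE 0.27), Gnb4 (0.22, SE 0.54) and Gng12 (0.40, SE 0.31) did not pass the test either. With the pool as a block that of Gnb4 was 0.27 (SE 0.23, edgeR adjusted p = 0.9998).

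Among regulators and effectors, the log2 estimates of Rgs1 and Pde4b lay near 0. That of Rgs1 was -0.01 (SE 0.23, 95% interval -0.56 to 0.54) and that of Pde4b was -0.05 (SE 0.24, 95% interval -0.63 to 0.53), which leaves differences within those intervals undetected. Prkar1a had 0.39 (SE 0.29), made of 0.82 in pool 2 and -0.02 in pool 3. Arrb2 had 0.29 (SE 0.29), Arrb1 0.03 (SE 0.36) and Adcy7 -0.37 (SE 0.30). Of the 8 members with the smallest p, Pde4dip, an anchoring protein of a phosphodiesterase, had 0.43 (SE 0.26), Rgs11 -0.78 (SE 0.51), and Rgs7bp, an anchor of RGS proteins of the Rgs7 group, -1.02 (SE 0.67). Rgs7bp stood at -0.38 without the agonist library of pool 2 and -2.08 without that of pool 3. Adcy9 had 0 and 6 reads in agonist wells, against 14 and 14 in control wells, and a fitted log2 fold change of -2.41 (SE 1.55), which was -1.42 without the agonist library of pool 2 and -6.87 without that of pool 3. The edgeR adjusted p of each member in the full fit was 0.9999.

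**Figure D4:**
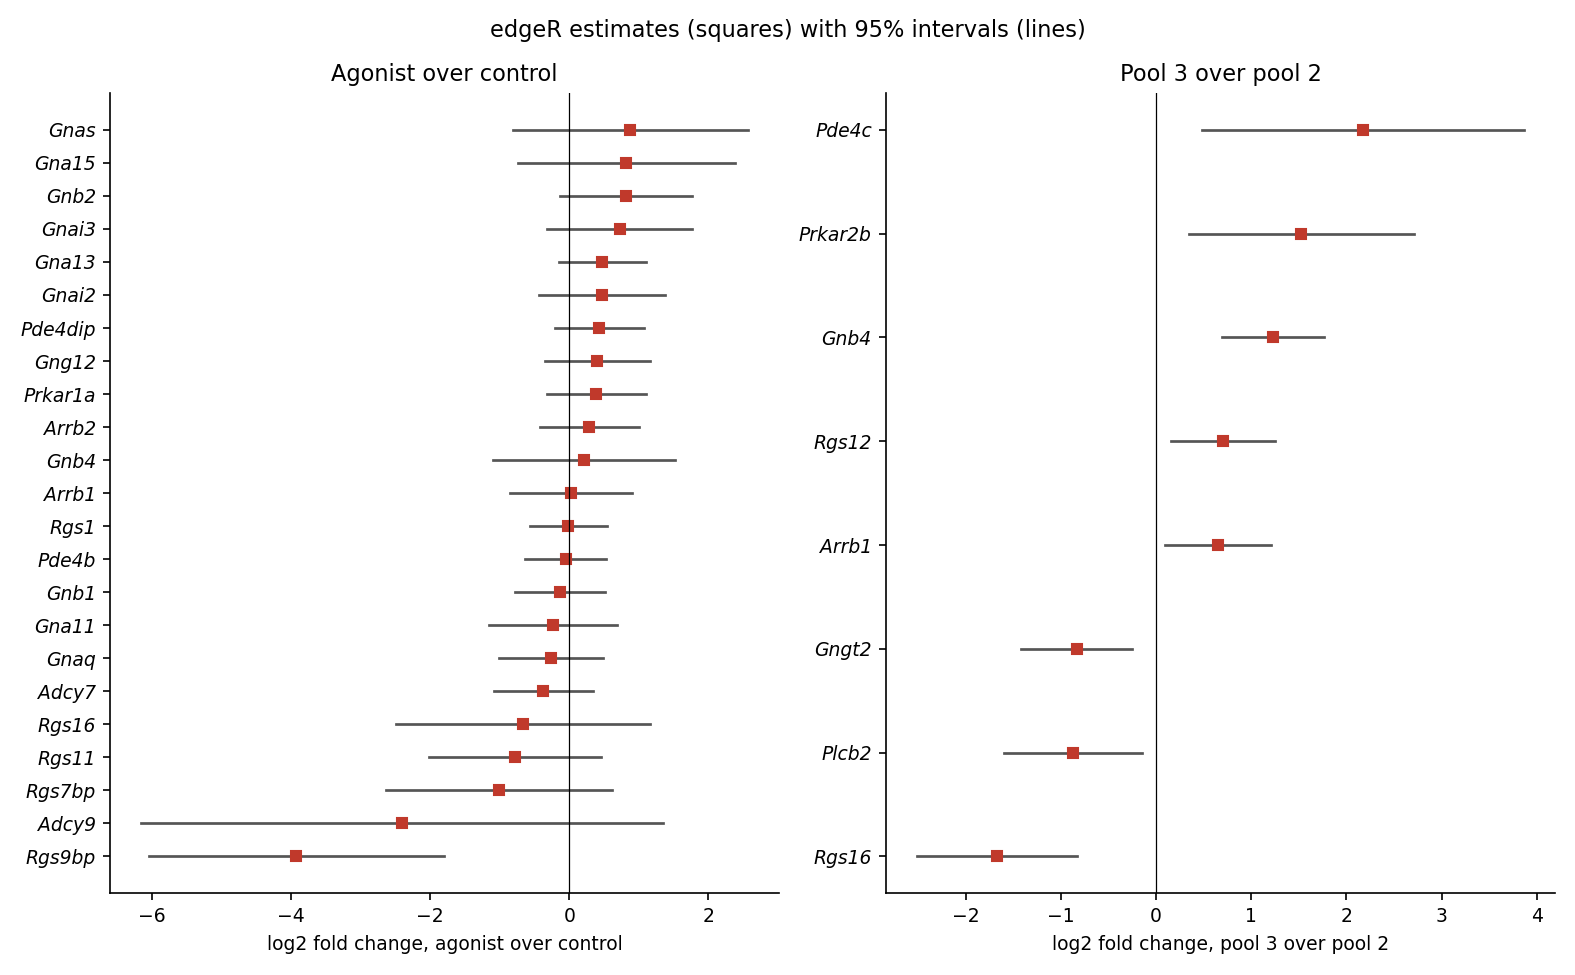
Log2 fold changes (squares) with 95% intervals (lines), agonist over control at the left and pool 3 over pool 2 at the right. Intervals at the left come from the fit without the pool as a block. Only that of Rgs9bp leaves out 0 there, at an unadjusted level. With the block, that of Gnai3 (0.12 to 1.61) leaves it out as well. The 8 members at the right were those of smallest p.

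Some members shared a shape over the 4 libraries, at a rate (13.8%) near that of all genes. The control well of pool 2 was the lowest library and the agonist well of pool 2 the highest for Gnai3, Prkar1a, Gng4, Gnb2, Gna15, Gng12, Pde4dip and Arrb2, 8 of 58 members, against 11% of all tested genes. Within pool 2, 7 members were over 1 log2 unit higher with agonist (13.8% of all genes), and within pool 3, 1 was (5.67%). The 6 markers of conventional type 1 dendritic cells, of which 2 were higher and 2 lower with agonist in both pools and none was at 0, summed to 601 and 443 CPM in the agonist wells of pools 2 and 3, against 224 and 426 CPM in the control wells. Irf8, their transcription factor, made up most of this sum, with 505.5 and 264 CPM with agonist, against 126 and 279.7 CPM in control. The difference of the sum between the wells of pool 2 was that of Irf8, and the other markers together were nearly level there. The part of cells with these markers in the members' values was not tested, nor was that of the T cell markers given above.

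More genes were called between the pools. With the agonist as a term, pool 3 against pool 2 gave 72 genes past the edgeR threshold (0.394% of all tested genes) and 0 of 58 members. DESeq2 called 706 of 18297 genes and 2 of 58 members, limma-voom 275 of 18297 genes and 1 of 58 members. At an unadjusted p under 0.05 there were 10 of 58 members (13.9% of all tested genes), 7 higher in pool 3 (6.15%) and 3 lower (7.71%). Both libraries of pool 3 were above both of pool 2 in 17 members (24% of all genes) and below them in 13 (25.2%). There was 1 pool per arm, so these p-values measure only the spread between wells.

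Gnb4 (ENSMUSG00000027669.14, chr3:32580332-32616585, minus strand, GRCm38) had the smallest p. In CPM it averaged 757 in pool 3 and 325 in pool 2, and its log2 estimate, pool 3 over pool 2, was 1.23 (SE 0.24, edgeR unadjusted p = 0.000585, adjusted p = 0.0733). It passed in DESeq2 (adjusted p = 0.000192) and limma-voom (adjusted p = 0.022). Rgs16, an RGS gene induced on activation of lymphocytes, had 1.27 and 1.52 CPM per kb in the agonist and control wells of pool 3, against 3.36 and 5.82 CPM per kb in those of pool 2. Its log2 estimate, pool 3 over pool 2, was -1.67 (SE 0.37, edgeR adjusted p = 0.0894), and DESeq2 called it (adjusted p = 0.0152). Of its exon bases, 10.1% are shared with the antisense gene Gm28513, which had 28 reads in all. Agonist over control, its estimate was -0.67 (SE 0.75, edgeR adjusted p = 0.9999).

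Other members of small p in the pool comparison missed the threshold as well. Gngt2 had a log2 estimate, pool 3 over pool 2, of -0.84 (SE 0.26, edgeR adjusted p = 0.192), Plcb2 of -0.87 (SE 0.32), Rgs12 of 0.70 (SE 0.24) and Arrb1 of 0.65 (SE 0.24). Prkar2b had 1.53 (SE 0.52) and Pde4c 2.18 (SE 0.75), both from at most 236 reads in a library. Summed markers of T cells, B cells and plasmacytoid dendritic cells were each lower in both wells of pool 3 than in those of pool 2, the last at 444 and 618 CPM in its agonist and control wells, against 725 and 962 CPM in those of pool 2. Summed markers of migratory dendritic cells, mast cells and platelets were each higher in both wells of pool 3. Mast cell markers stood at 832 and 790 CPM in its agonist and control wells, against 445.5 and 474.5 CPM in pool 2. Of these 4 markers 3 were tested, and their median log2 fold change, pool 3 over pool 2, was -1.49. Most of the tested mast cell markers were thus lower in pool 3, against the direction of the sum. The part of any of these cells in the members named here, or in Gnb4 and Rgs16, was not tested.

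The rest of the pathway was read from 5 lists of genes, and edgeR called 0 in each. Ffar2 itself had 89 and 116 reads in the agonist wells, against 176 and 202 in the control wells, with a log2 estimate of -1.07 (SE 0.47, unadjusted p = 0.0587, edgeR adjusted p = 0.9999). Of 26 receptors of leukocytes coupled to Gi or Gs, 22 were tested. At an unadjusted p under 0.05, 0 were higher (0.639% of all tested genes) and 2 lower (0.94%). With the pool as a block 3 were lower and 0 higher, where 3.53% of all tested genes reached that level in either direction. Ffar2 was among the 3 (log2 estimate -1.08, unadjusted p = 0.0426, edgeR adjusted p = 0.9998). The 2 in the unblocked fit were Hcar2, a receptor for niacin and ketone bodies, with 44 and 17 reads in agonist wells, against 155 and 85 in control wells, and Fpr2, a formyl peptide receptor, with 0 and 0 reads in agonist wells, against 18 and 34 in control wells. Of 18 effectors of beta-gamma and of G12/13, all tested, 1 was higher at that level in the unblocked fit (0.639% of all tested genes). It was Pik3r5, the regulatory subunit through which beta-gamma activates phosphoinositide 3-kinase gamma. It had 1006 and 743 CPM in agonist wells, against 398 and 617 CPM in control wells (log2 fold change 0.79, SE 0.32, unadjusted p = 0.0484, edgeR adjusted p = 0.9999). The median log2 fold change of this list was 0.04.

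In the other lists no gene reached that level in either direction. Of 21 receptor kinases and G protein modulators 18 were tested, with a median of 0.07, and Grk6, a kinase that marks receptors for arrestin, had the smallest p there, at -0.73 (SE 0.45). Of 26 cyclic AMP effectors and other phosphodiesterases 24 were tested, with a median of -0.14, led by Prkx, a kinase related to PKA, at 0.92 (SE 0.49). Prkx was higher with agonist by 1.87 in pool 2 and stood at -0.15 in pool 3, and its estimate was 0.24 without the agonist library of pool 2 and 1.48 without the control library of pool 3. All 23 effectors of Gq and PLC were tested, with a median of 0.07, led by Nfatc2, a calcium-regulated transcription factor, at 0.89 (SE 0.46). Each of these log2 fold changes had an edgeR adjusted p of 0.9999.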

How the data were processed

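The authors deposited raw counts of reads for each gene. The mouse build GRCm38 (mm10), STAR 2.7 and HTSeq 0.11.1 are named per the submitters' processing notes. The strand setting of the counting is not given in the sources used here, and the SMART-seq v4 kit named in the labels' protocols leaves strand unmarked, so reads from exon bases shared with an antisense gene could come from either. All 55450 gene rows matched GENCODE M21 by identifier and symbol. Reads outside genes made up 15.96% to 19.99% of a library, ambiguous reads 5.77% to 6.5% and reads aligned to several places 6.54% to 6.98%, and none of these was used.

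Counts were tested with edgeR 4.0.16 (quasi-likelihood test, R 4.3.3) after its expression filter with a minimum count of 10, which left 18297 genes, and scaling by trimmed mean of M-values (TMM). All 4 libraries entered each fit, the agonist against the control with no other term, and pool 3 against pool 2 with group as a term. P-values are two-sided, with Benjamini-Hochberg adjustment over the whole table and a threshold of 0.05. Each SE follows from a log2 fold change and its F statistic, and log2 CPM of single libraries had a prior count of 2. CPM per kb used the exon union of GENCODE M21. Principal transcript lengths, a setting chosen after seeing the data, are the alternative. DESeq2 1.42.0, limma-voom (limma 3.58.1), other scalings and filters, the pool as a block and leaving out each library were the other alternatives. The fit was tested on simulated data.

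The protocol says that a pool's cells were divided between the wells, and deviations from the group mean correlated between same-numbered libraries (Pearson r = 0.288, 18297 genes), so the numbers pair the libraries. In the agonist comparison p-values rest on how much 2 pools and their wells vary. With no block, the difference between the pools is part of the agonist SEs. Promoters are those of RefSeq for GRCm38.p6, found for 62 of the 79 members.

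Members, gene lists and tests were chosen with earlier results of these data known. In each role up to 6 members of highest level are named, then the 8 of smallest p in each comparison and those without reads, and up to 3 genes of smallest p per list. Other members named with a fold change, such as Gnai2 and Rgs1, were chosen after their values were seen.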

Additional observations from a re-analysis of the deposited data

Results flagged for a closer look

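Adcy5 and Gng11 went opposite ways in the pools. Adcy5, an adenylyl cyclase that Gi inhibits, was higher with agonist in pool 2, by 1.95 in log2 CPM, and lower in pool 3, at -0.92, from 29 and 49 reads in the agonist wells of pools 2 and 3, against 5 and 87 in the control wells. Gng11, a gamma subunit gene, was higher by 1.21 in pool 2 and lower in pool 3, at -0.60, from 11 and 10 reads in the agonist wells, against 3 and 15 in the control wells. With 1 agonist and 1 control library per pool, the difference between the pools was not tested.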

How the results depend on the processing

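With the replicate block, edgeR called 1 gene in the agonist comparison, 2 members had an unadjusted p under 0.05 and the members' median log2 fold change was -0.04; no member's call changed. With no filter on low counts 9 genes were called and 3 of 69 members had such a p, against 925 of 28600 genes. DESeq2 called 7 genes. A minimum count of 50 gave a member median of 0.0469. When each library was left out, the members' median ranged from -0.14 to 0.12.

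Pool 3 against pool 2 depended on the processing. It gave 5 genes with scaling by total counts, 600 with no filter, 8 with a minimum count of 50, 5 without the group term, 706 in DESeq2 and 275 in limma-voom. It gave 2 of 69 members (Gnb4 and Rgs16) with no filter, beside those 600 of 28600 genes. It gave 2 of 58 members (the same 2) in DESeq2 and 1 of 58 (Gnb4) in limma-voom. Leaving out each library, with no group term and the lone library of a pool assumed to vary like the others, gave 1 to 1575 genes and 0 to 6 members; the counts were 1575 without the agonist library of pool 2, 841 without the control library of pool 2, 10 without the agonist library of pool 3 and 1 without the control library of pool 3. Without the agonist library of pool 2, log2 estimates, pool 3 over pool 2, were 1.45 for Gnb4, -2.04 for Rgs16 and -1.09 for Plcb2. They were -0.999 for Gngt2 and 0.69 for Arrb1.

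Some agonist log2 fold changes changed sign. That of Rgs1 was 0.0177 with DESeq2's size factors and in DESeq2 and 0.0469 with a minimum count of 50, and that of Pde4b was 0.006 with that minimum. Leaving out each library gave -0.0756 to 0.0895 for Rgs1, -0.16 to 0.0775 for Pde4b, -0.0486 to 0.86 for Gnai2, -0.44 to 1.11 for Gnb4, -0.34 to 0.46 for Arrb1 and -1.50 to 0.60 for Rgs16. The fits with a library left out had no pool term, so the pools were uneven between the groups. Agonist minus control in log2 CPM, in pools 2 and 3, was 0.40 and 0.14 for Gnb4, and 0.03 and 0.02 for Arrb1. It was -0.79 and -0.26 for Rgs16, while Gnai2, Rgs1 and Pde4b went opposite ways in the pools. The cause of the changes of sign was not tested. The order within a role was the same with principal transcript lengths for 52 of 58 members. With 2 libraries a group, the 95% interval of a member's agonist log2 fold change lay within 1 of 0 for 11 of 58, and for 26 with the pool as a block.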
